A study of Mus musculus with 5 samples.

Results

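CD8 T cells are the lymphocytes that carry the CD8 co-receptor, a dimer of the Cd8a and Cd8b1 chains, beside a T cell receptor and the CD3 chains. In the aortas examined here they were picked cell by cell from the deposited single-cell table, as cells with a unique molecular identifier (UMI, 1 counted RNA molecule) of at least 1 of Cd3e, Cd3d and Cd3g and of Cd8a or Cd8b1. A cell was refused if its natural log level of C1qa, a macrophage gene, was above 2, if it held Cd79a (B cells) or Cdh5 (endothelial cells), or if it held 3 or more of the cycling genes Mki67, Top2a, Birc5, Ube2c and Cenpf. This gate took 447 of 18260 cells, or 2.45%. The table comes from 5 libraries of live cells sorted from the arch of the aorta, in mice prone to atherosclerosis. In 2 libraries the mice were Oasl1+/+Apoe-/-, below called Apoe-/-, and in 3 they were labelled Oasl1-/-Apoe-/-, below called DKO-labelled. Every mouse lacked Apoe and ate normal chow for 28 weeks, and the design text gives pooled cells with n = 6. Oasl1 was deleted in the whole body through its promoter and the second exon. The labels do not say whether libraries of 1 group came from separate pools of mice, so p-values here measure the spread between libraries, which may be technical. There were 65 and 55 CD8 T cells in the Apoe-/- libraries and 103, 117 and 107 in the DKO-labelled libraries, and values are given below in this order.

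A CD8 T cell recognises peptides shown by MHC class I molecules. After activation it can kill through perforin and granzymes, and it secretes interferon gamma and the chemokines Ccl3, Ccl4 and Ccl5. Naive and central memory CD8 T cells keep the transcription factors Tcf7 and Lef1 and the homing genes Ccr7 and S1pr1, whereas cells exposed to antigen for long carry inhibitory receptors such as Pdcd1 and Lag3. CD8 T cells are a known part of the leukocytes of mouse atherosclerotic lesions. Interferons act on T cells and induce a shared set of antiviral genes.

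The 5 marker genes given for these cells were present in every library. Levels are UMIs per 10000 UMIs of a cell (CP10K), averaged over the cells of a library, and the assay reads RNA from its 3′ end. Cd8b1 was at 15 and 10.6 CP10K against 15.8, 13.7 and 13.9 and Cd8a at 6.69 and 6.86 CP10K against 9.49, 7.84 and 9.30, and these levels, like those of Cd3g at 16.6 and 14.6 CP10K against 24.4, 20.8 and 19.9, were used by the gate. Both co-receptor chains were seen in 301 cells, Cd8b1 alone in 106 and Cd8a alone in 40. By library, both were seen in 58.5% and 54.5% of CD8 T cells against 73.8%, 69.2% and 71.0%. Nkg7, a membrane protein of cytotoxic granules, and the chemokine Ccl5 did not enter the gate. A Nkg7 UMI was held by 93.8% and 94.5% of CD8 T cells against 99.0%, 99.1% and 99.1%, and a Ccl5 UMI by 92.3% and 90.9% against 94.2%, 93.2% and 96.3%. Cells gated as smooth muscle, which should lack Ccl5, held a Ccl5 UMI in 1.42% at a greater depth. A Cd4 UMI was found in 2 of the 447 cells. Trdc, the constant gene of the delta T cell receptor chain, had 3 UMIs in all, and the natural killer genes Ncr1 and Klra8 had none. Other genes of these cells were seen. The 13 listed natural killer and gamma-delta T cell genes summed to 2.495 and 4.16 CP10K against 9.91, 9.35 and 8.43, without overlap. A UMI of the killer cell receptor gene Klre1 was held by 4.62% and 14.5% of CD8 T cells against 27.2%, 28.2% and 23.4%. Whether natural killer or gamma-delta T cells passed the gate was not tested. The highest natural log level of C1qa in a member was 1.96 and the lowest in a cell refused for it was 2.02. Of 477 cells positive for CD3 and CD8 genes, 30 were refused, and 17 were refused for cycling genes alone.

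The members were shallow. Their median was between 1793 and 2068 UMIs and between 771 and 877 genes per library, against a median of 4974 UMIs in cells gated as smooth muscle. A library's CD8 T cells together held 104580 to 248776 UMIs, so that 1 UMI of that sum is worth 0.0402 to 0.0956 CP10K. Of the 447 cells, 13 had fewer than 1000 UMIs and 13 had more than 5000. In 14 cells, 10 of them in Apoe-/- library 1, at least 2 haemoglobin genes were seen, and the summed red blood cell genes were at 123 and 2.86 CP10K against 37.7, 1.07 and 0.929. Smooth muscle markers, summed over 12 genes, were at 21.8 and 6.60 CP10K against 10.3, 16.8 and 13.9. Fibroblast markers, summed over 12 genes, were at 1.25 and 0.770 CP10K against 5.37, 2.61 and 1.61, and their leading gene Dcn was at 0 in both Apoe-/- libraries. The part of this RNA in the results below was not tested, apart from the values given without the cells concerned. Of 18094 barcodes 165 occurred in more than 1 library, 8 members carried such a barcode, and no 2 members shared one. Oasl1 itself had 0 and 0 UMIs against 2, 3 and 3 in CD8 T cells. The count of 0 allows a share of cells with a UMI of up to 4.62% and 5.45%. Over all aortic cells Oasl1 was at 0.0145 and 0.00854 against 0.169, 0.163 and 0.198 CP10K. Both sets of values run against the labels, since Oasl1 was higher in the libraries labelled as lacking it. Reads come from its 3′ end, outside the deleted promoter and exon, so the files do not settle the genotype. Whether the labels were exchanged was not tested, and an exchange would turn every direction between the groups given below. The groups are named by their labels throughout.

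CD8 T cells made up a larger share of all cells in the DKO-labelled libraries. They were 1.59% and 1.27% of all cells in the Apoe-/- libraries and 3.03%, 3.64% and 3.31% in the DKO-labelled libraries, with no overlap of the groups. The means were 1.43% ± 0.231 (SD, n = 2) and 3.33% ± 0.309 (SD, n = 3), a difference of 1.90 percentage points with an exact two-sided permutation p = 0.1, which is the smallest that 2 against 3 libraries allow. Their share of T cells was 66.3% and 60.4% against 61.7%, 65.7% and 68.2%, and the groups overlapped (exact permutation p = 0.6). Among cells with a UMI of Ptprc, the common leukocyte antigen, CD8 T cells were 9.09% and 7.58% against 8.60%, 11.01% and 9.32%, again overlapping (exact permutation p = 0.4). The larger share was therefore seen against all cells, while CD8-negative T cells, defined by the same gate without Cd8a and Cd8b1, were at 0.809% and 0.830% against 1.88%, 1.90% and 1.55% of all cells. A share of sorted cells does not separate more CD8 T cells from fewer cells of other kinds: cells gated as smooth muscle numbered 2809 and 3036 against 1670, 1575 and 1579.

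**Figure D1:**
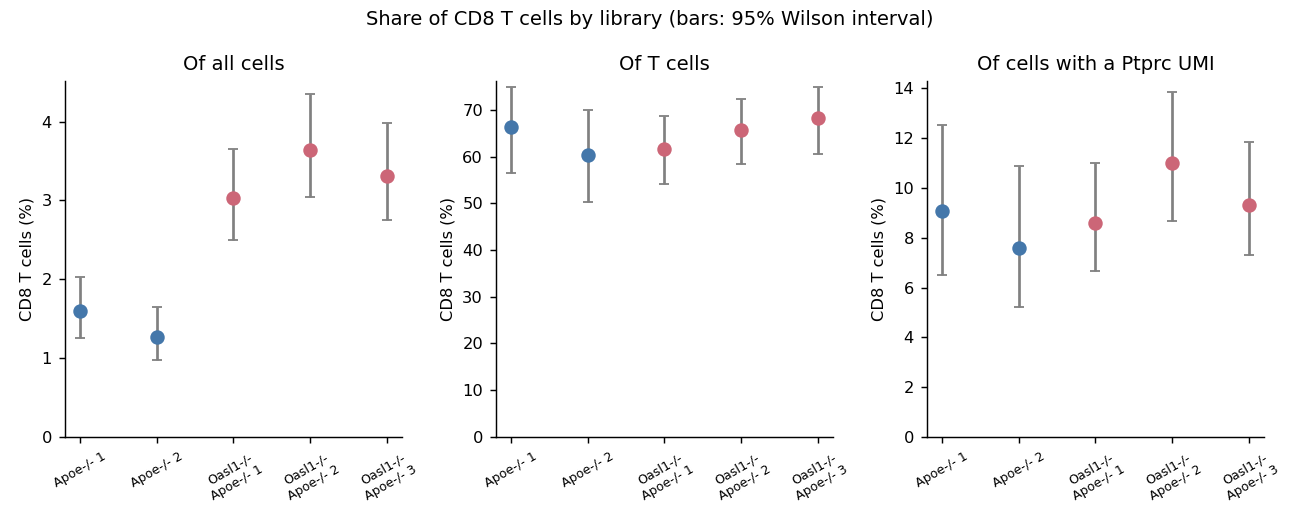
Share of CD8 T cells (y axis, percent) in each of the 5 libraries (x axis), taken of all cells, of T cells and of cells with a Ptprc UMI; points are libraries and bars are 95% Wilson intervals, which cover counting error only. Of all cells, the 3 DKO-labelled libraries lie between 3.03% and 3.64% and both Apoe-/- libraries at or below 1.59%, and in the other panels the groups overlap.

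Within CD8 T cells, 2341 genes had a mean of at least 0.5 CP10K and were compared between the groups with limma on log2(mean CP10K + 0.5). Log2 differences below are DKO-labelled minus Apoe-/-, on that scale, which understates the change of low genes. They are followed by ± their standard error and by limma's Benjamini-Hochberg adjusted p over the 2341 genes. Past an adjusted p of 0.05, 70 genes were higher in the DKO-labelled libraries, 2.99% of those tested, and 32 were lower, 1.37%. At an unadjusted p under 0.05 there were 409 genes, and the median difference of all genes was 0.03. Leaving out DKO-labelled library 3 took the calls to 27 higher and 13 lower, leaving out DKO-labelled library 1 to 33 and 14, and leaving out DKO-labelled library 2 to 39 and 17. Cd3g, a gate gene, is among the 70 and supports nothing. All 102 called genes were without overlap between the groups, as were 796 of all 2341 genes tested, 34.0%, so non-overlap adds nothing to a call. Of the 70, 14 were under 0.5 CP10K in both Apoe-/- libraries and passed the filter only through the DKO-labelled libraries. For Tcrg-C4, Phlda1 and Tnfrsf9 the mean of the Apoe-/- libraries was under 0.5 CP10K too. Levels of all these genes are given below as a description, with no test. Of 58 called genes named by a rule, 23 passed whichever 1 library was left out, among them Ifi27l2a, Ly6a, Bst2, Ccl3, Ccl4, Ccl5, Nkg7, Hspa1a, Hspa8, Dnajb1, Tcrg-C2, Rgs16, Pfn1, S100a11, Tpt1, Rpl5, Rpl12 and Rack1. The calls of the others of the 58 were lost in at least 1 of these 5 fits.

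**Figure D2:**
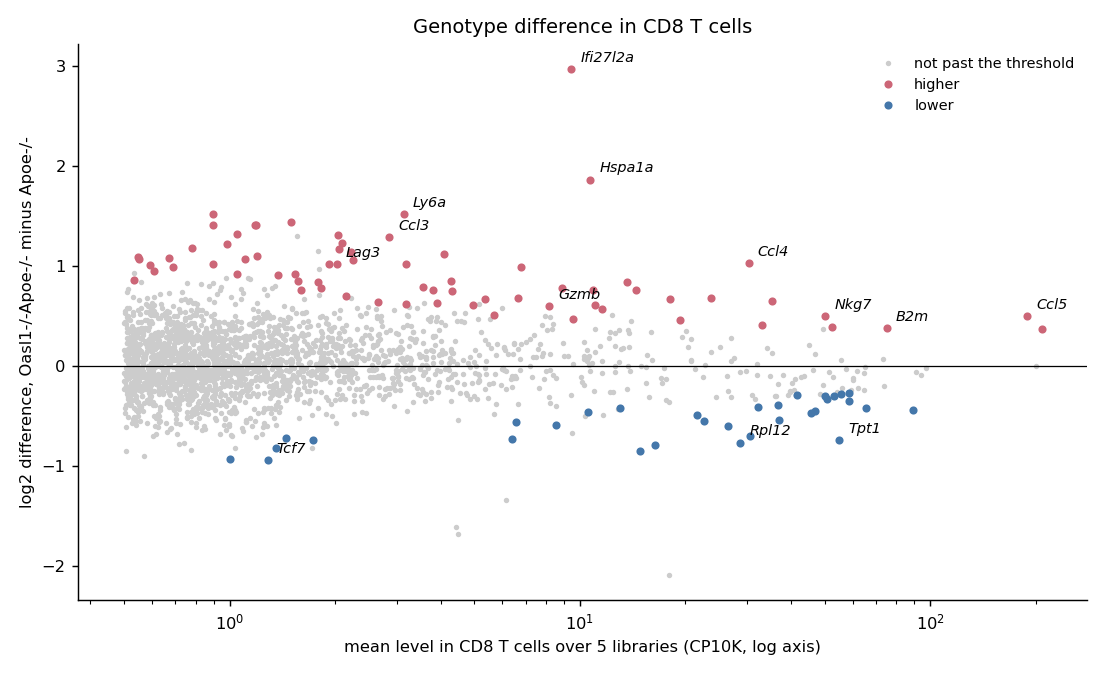
Log2 difference between DKO-labelled and Apoe-/- libraries (y axis) against the mean level in CD8 T cells (x axis, CP10K, log axis) for the 2341 genes tested; red and blue points are the 70 genes called higher and the 32 called lower. Ifi27l2a stands highest at 2.97, and many of the lower calls are abundant genes such as Tpt1 and Rpl12.

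Type I interferon response genes were the longest list and the list with the largest number of genes called higher. By share the heat shock list stood higher, with 6 of 12 tested genes called. Of 68 genes listed, 65 were in the table and 23 passed the filter on low levels. 9 of these 23 were called higher, none fell and 14 were not called, with a median log2 difference of 0.63 against 0.03 over all genes. The share called higher over all genes tested was 2.99%. The filter used the mean of all 5 libraries, 3 of them DKO-labelled, so it favours genes that are high there. Of the 9, 5 passed it only through the DKO-labelled libraries, and 4 (Ifi27l2a, Ly6a, Bst2 and Ly6e) did not. The sum over all 65 genes, with no filter, was 26.7 and 26.1 CP10K against 68.7, 70.1 and 62.7. Ifi27l2a (chr12:103442167-103443680, minus strand in mm10), a small membrane protein induced by interferon, was at 1.98 and 1.03 CP10K against 14.7, 14.2 and 15.3 and the groups were far apart (log2 difference 2.97 ± 0.18, adjusted p = 3.71e-06). A UMI of Ifi27l2a was found in 23.1% and 16.4% of CD8 T cells against 70.9%, 79.5% and 73.8%. Deeper cells gated as smooth muscle, which can express it too, held one in 17.9%. Over all aortic cells Ifi27l2a was at 0.777 and 0.781 against 7.55, 8.36 and 8.68 CP10K, and free RNA from other cells was not tested as a source.

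Also among the 9 were Ly6a, Zbp1, Rtp4, Bst2, Xaf1, Isg15 and Ly6e. Ly6a, the surface protein Sca-1, was at 1.17 and 1.26 CP10K against 5.22, 4.15 and 3.92 (log2 difference 1.52 ± 0.16, adjusted p = 0.000537). Bst2, which tethers budding virus to the cell, was at 1.11 and 1.02 CP10K against 3.50, 3.20 and 2.30 (log2 difference 1.14 ± 0.19, adjusted p = 0.00524), and its call was lost with limma-voom (adjusted p = 0.0631). Ly6e differed by 0.61. Without a test, Zbp1, a sensor of Z-form nucleic acid, was at 0.246 and 0.388 CP10K against 1.65, 1.33 and 1.64. The ubiquitin-like protein Isg15 was at 0.336 and 0.387 CP10K against 1.13, 1.54 and 1.10, also low in both Apoe-/- libraries. Rtp4 was at 0.231 and 0.402 CP10K against 1.38, 1.91 and 0.986 and Xaf1 at 0.209 and 0.195 CP10K against 1.04, 1.05 and 0.875. Usp18, which removes Isg15 from proteins, stayed under the filter with 0 and 0 UMIs against 16, 20 and 8, and the antiviral gene Ifit1 with 0 and 0 UMIs against 11, 12 and 5. Ifit3 at 0.0474 and 0.817 CP10K against 0.942, 0.560 and 0.836 and the transcription factor Irf7 at 0.216 and 0.535 CP10K against 0.938, 0.708 and 0.633 were tested and not called.

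Promoters are shown for Bst2 and Isg15 because both hold the core of the interferon-stimulated response element, here the letters GAAANNGAA on either strand, within 250 bases before to 50 bases after the gene start. RefSeq promoters (GRCm38.p6) were matched for 3 of the 9 genes: Bst2, Isg15 and Xaf1. The window of Xaf1 holds no match. The core is found in 8.56% of 32851 promoter windows of the same length, and a match describes letters and is not a bound site. Matches are in capitals, 5′ to 3′ along the gene. The Bst2 window is chr8:71537574-71537622 and the Isg15 window chr4:156200868-156200916, both on the minus strand.
Bst2: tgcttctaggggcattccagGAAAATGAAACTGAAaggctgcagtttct
Isg15: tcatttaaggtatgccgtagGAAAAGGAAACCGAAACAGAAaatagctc
Counted from the gene start, the first match begins at -130 in Bst2 and at -78 in Isg15. In these capitals, 2 overlapping matches stand in Bst2 and 3 in Isg15.

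Of 24 MHC class I presentation genes held by the table, 20 were tested, 4 rose and none fell, and 18 of the 20 differences were above 0, with a median of 0.36. Over all 2341 genes 2.99% rose past the threshold. B2m, the light chain of every class I molecule, was at 63.02 and 63.8 CP10K against 87.6, 77.5 and 83.3 (log2 difference 0.38 ± 0.07, adjusted p = 0.00719). Its call was lost with UMIs summed over cells, in limma-voom and without DKO-labelled library 3. The class I heavy chain gene H2-D1 was at 27.2 and 27.6 CP10K against 41.4, 32.3 and 36.9 and H2-T22 at 2.70 and 2.92 CP10K against 4.05, 4.53 and 5.35, and Psme2, a proteasome activator subunit, at 2.52 and 2.14 CP10K against 4.22, 4.42 and 4.47. The calls of H2-D1, H2-T22 and Psme2 did not pass in every fit that left out 1 library. H2-D1 and H2-T22 belong to a family of near-identical genes among which reads could be split, so their values are uncertain. H2-K1 at 23.1 and 22.8 CP10K against 27.7, 24.3 and 27.1 and the peptide transporter gene Tap1 at 0.860 and 0.848 CP10K against 1.20, 0.953 and 1.33 were not called. Of the interferon gamma-induced GTPases only 3 of 16 genes passed the filter and none was called, with a median of 0.49 and with Igtp at 0.470 and 0.522 CP10K against 0.467, 0.672 and 0.883. The interferon receptor genes Ifngr1 at 9.63 and 9.46 CP10K against 6.60, 6.95 and 8.32 and Ifnar1 at 1.43 and 0.487 CP10K against 1.31, 1.45 and 0.897 were not called. The class II chain Cd74, an abundant RNA of other aortic cells, was at 0.175 and 0.0842 CP10K against 0.558, 0.926 and 1.02 in CD8 T cells and at 23.3 and 23.5 against 68.7, 64.9 and 71.9 CP10K over all aortic cells.

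The effector chemokines Ccl3, Ccl4 and Ccl5 rose. Of 14 cytokine and chemokine genes 8 were tested and these 3 were higher, with a median of 0.50 over the 8. Among all genes tested 2.99% were higher. Ccl5 (chr11:83525778-83530518, minus strand in mm10) was the most abundant of them, at 140.3 and 163 CP10K against 199.7, 217 and 225 (log2 difference 0.50 ± 0.07, adjusted p = 0.0023). Its call did not hold where UMIs were summed over cells (adjusted p = 0.0728) or in limma-voom (adjusted p = 0.0502). Ccl4 was at 15.1 and 22.2 CP10K against 37.7, 43.2 and 33.4 (log2 difference 1.03 ± 0.15, adjusted p = 0.00232) and Ccl3 at 1.34 and 1.22 CP10K against 4.85, 3.58 and 3.28 (log2 difference 1.29 ± 0.18, adjusted p = 0.0023). Ccl3 and Ccl4 were also higher over all aortic cells, at 1.68 and 1.41 against 4.30, 3.75 and 3.77 and 3.14 and 2.31 against 9.88, 8.64 and 9.83 CP10K. Ifng, the gene of interferon gamma, was at 2.68 and 2.06 CP10K against 4.56, 4.17 and 2.83 and was not called (log2 difference 0.59 ± 0.20, adjusted p = 0.128).

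Of 20 cytotoxic effector genes 15 were tested, 4 rose and none fell, with a median of 0.53, where 2.99% of all genes tested rose. Of the 15 differences 12 were above 0 and 3 below. Nkg7 was at 39.3 and 40.6 CP10K against 56.4, 52.1 and 62.2 (log2 difference 0.50 ± 0.08, adjusted p = 0.00498). Gzmb, the granzyme that starts apoptosis in target cells, was at 7.09 and 5.23 CP10K against 9.27, 9.66 and 9.56 (log2 difference 0.60 ± 0.13, adjusted p = 0.0303). The activating receptor NKG2D, gene Klrk1, was at 1.87 and 3.82 CP10K against 5.30, 5.29 and 5.22 (log2 difference 0.85 ± 0.21, adjusted p = 0.0456), and Id2, a transcription regulator of effector cells, at 4.35 and 5.14 CP10K against 7.12, 8.95 and 7.63 (log2 difference 0.68 ± 0.14, adjusted p = 0.018). The calls of Gzmb, Klrk1 and Id2 did not pass in every fit that left out 1 library. Gzmk at 3.63 and 3.55 CP10K against 5.95, 5.41 and 4.92 and perforin, Prf1, at 0.604 and 0.682 CP10K against 1.16, 1.47 and 1.56 missed the threshold (adjusted p = 0.0516 and 0.0594). Gzma, at 2.003 and 3.97 CP10K against 3.94, 5.06 and 3.49, Ctsw and Fasl were not called either, and the last had log2 difference -0.03.

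**Figure D3:**
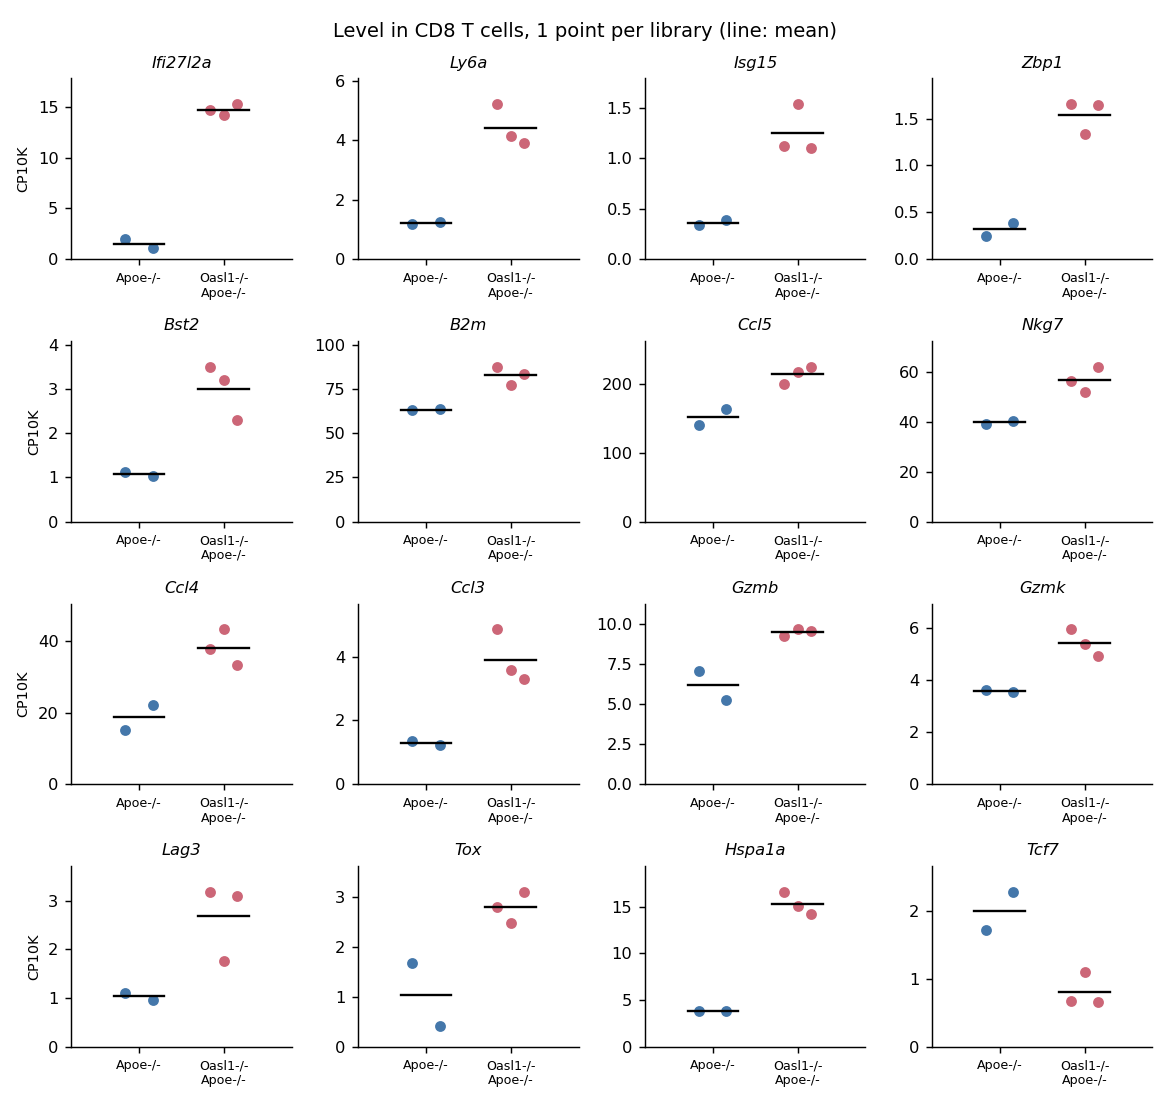
Mean level in CD8 T cells (y axis, CP10K, from 0) for 16 genes, with 1 point per library and a line at the mean of each group (x axis, Apoe-/- n = 2, DKO-labelled n = 3). Tcf7 is the 1 panel in which the DKO-labelled libraries are lower.

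Genes of the naive and central memory state were mixed. Of 14 listed, 7 were tested: Tcf7 fell, Bcl2 rose and 5 were not called, with a median of -0.47. Among all genes tested 2.99% rose and 1.37% fell. Tcf7, a transcription factor that maintains self-renewing T cells, was at 1.72 and 2.28 CP10K against 0.679, 1.10 and 0.653 (log2 difference -0.94 ± 0.21, adjusted p = 0.031), and its call was lost without Apoe-/- library 2, DKO-labelled library 1 or DKO-labelled library 3. Bcl2, a survival factor, was at 4.25 and 4.57 CP10K against 6.58, 5.95 and 7.04 (log2 difference 0.51 ± 0.13, adjusted p = 0.0484), and its call was lost in 13 of 20 alternatives, among them each fit that left out 1 library. Klf2, which drives S1pr1, was at 11.4 and 13.04 CP10K against 5.31, 8.25 and 9.49 and not called (log2 difference -0.67 ± 0.19, adjusted p = 0.0784). Lef1, at 0.957 and 0.685 CP10K against 0.190, 0.342 and 0.181, was under the filter.

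With every cell thinned to 1000 UMIs, which left 434 cells, the share of cells with a UMI of a gene group was compared. The effector group (any of Gzma, Gzmb, Gzmk and Prf1) was found in 52.4% and 53.7% against 64%, 69.03% and 66.3% of thinned cells, and the groups were apart (exact permutation p = 0.1, adjusted over 7 gene groups p = 0.233), against 0.0282% of thinned smooth muscle cells. Unthinned shares of this group were 64.6% and 69.1% against 81.6%, 82.1% and 75.7%. A UMI of any of the interferon genes Isg15, Ifit1, Ifit3, Irf7, Usp18 and Rtp4 was in 6.35% and 9.26% against 31%, 32.7% and 25% of thinned cells (exact permutation p = 0.1, adjusted p = 0.233), and in 18.5% and 20% against 47.6%, 50.4% and 39.3% unthinned. Smooth muscle cells, which can express these genes too, were at 3.66% thinned. For the inhibitory receptors Pdcd1, Lag3, Tigit and Havcr2 the thinned shares were 36.5% and 38.9% against 56%, 45.1% and 56.7%, without overlap (exact permutation p = 0.2, adjusted p = 0.35). The groups overlapped for the residence genes Itgae, Itga1, Cxcr6 and Xcl1, at 63.5% and 51.9% against 59%, 53.98% and 59.6% (exact permutation p = 1), and Itga1, also a gene of smooth muscle, puts thinned smooth muscle cells at 11.9%. Ccl5 and Nkg7 were near saturation, with 91.2% to 98.0% of thinned cells positive in the DKO-labelled libraries, and their groups overlapped.

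**Figure D4:**
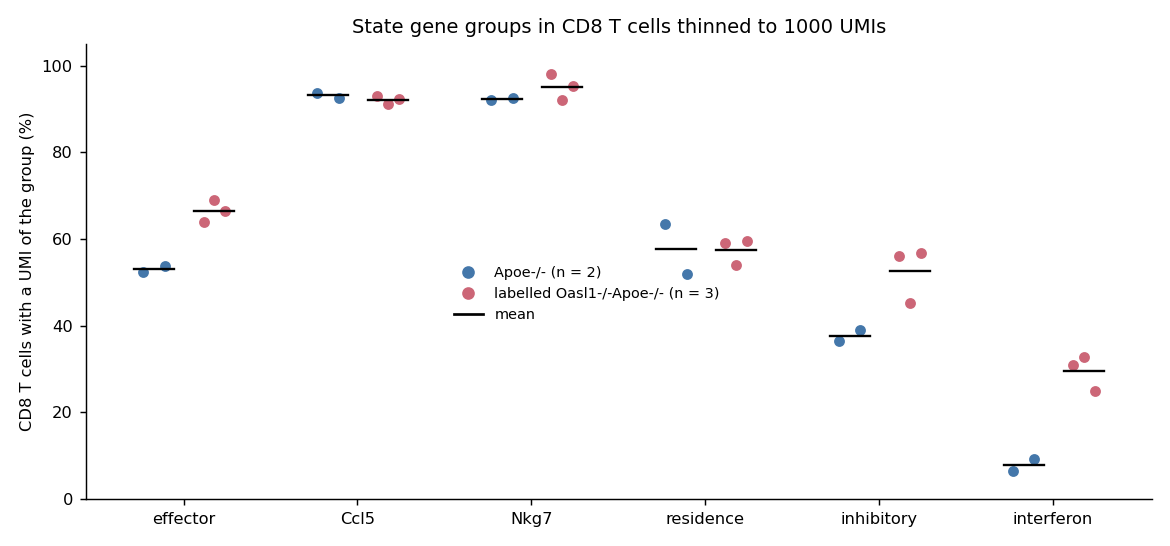
Percent of CD8 T cells with at least 1 UMI of each of 6 gene groups (y axis) after thinning every cell to 1000 UMIs, with 1 point per library and a line at each group's mean. Interferon genes are at 25% to 32.7% in the DKO-labelled libraries against at most 9.26%, and the effector group does not overlap either, while residence genes do.

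Inhibitory receptor and exhaustion genes were mixed. Of 13 genes 9 were tested, 3 were called higher and none fell, with a median of 0.46, where 2.99% of all genes tested were called higher. Lag3, a receptor for MHC class II, was at 1.11 and 0.962 CP10K against 3.18, 1.76 and 3.10 (log2 difference 1.02 ± 0.22, adjusted p = 0.027). Tox, a transcription factor of chronically stimulated T cells, was at 1.67 and 0.408 CP10K against 2.80, 2.48 and 3.10 (log2 difference 1.22 ± 0.29, adjusted p = 0.041). Without a test, the costimulatory receptor Tnfrsf9, also called 4-1BB, was at 0.577 and 0.324 CP10K against 1.90, 0.869 and 1.86. It passed the filter through the DKO-labelled libraries. The calls of Lag3, Tox and Tnfrsf9 were lost in at least 2 of the fits that left out 1 library. Pdcd1, the gene of PD-1, was at 4.72 and 4.12 CP10K against 7.10, 5.72 and 6.09 and not called (log2 difference 0.46 ± 0.14, adjusted p = 0.0881), nor was Ctla4 at 0.592 and 0.721 CP10K against 1.10, 1.57 and 1.19. Nr4a2 and Cd160 were below 0, at -0.18 and -0.54, and not called. None of the 10 tested tissue residence genes was called (median -0.04): Xcl1 was at 7.65 and 6.26 CP10K against 8.88, 7.54 and 8.05, Cxcr6 at 3.71 and 3.02 CP10K against 4.89, 4.81 and 5.47 and Cd69 at 2.19 and 3.30 CP10K against 2.73, 2.91 and 2.72. No chemokine receptor of 6 tested was called either, with Cxcr3 at 0.956 and 1.41 CP10K against 1.15, 1.10 and 0.724 and Ccr2 at 0.616 and 0.923 CP10K against 0.828, 0.904 and 0.973.

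Pairs of genes were also counted in the thinned cells, as a description with no test, since cells of a library share their source. In the Apoe-/- libraries 48.5% of cells with a Gzmk UMI held Pdcd1 and 26.2% of cells without it did, and in the DKO-labelled libraries these shares were 45.2% and 38.2%. Pdcd1 was thus seen more often beside Gzmk in both groups. Gzmb was held by 35.3% of cells with Tcf7 and 34.0% of cells without in the Apoe-/- libraries, and by 19.4% and 42.7% in the DKO-labelled libraries. These shares pool libraries and rest on few cells. In the Apoe-/- libraries 6 cells held both and 11 Tcf7 alone, and in the DKO-labelled libraries 6 and 25. Pdcd1 was in 27.5% of cells with Gzmb and 35.1% without in the Apoe-/- libraries, and in 43.0% and 39.7% in the DKO-labelled libraries. Not every pair counted is given.

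Of 12 heat shock genes, all of them tested, 6 rose and none fell, with a median of 0.57, where 2.99% of all genes tested rose. Hspa1a, an inducible HSP70 chaperone, was at 3.88 and 3.78 CP10K against 16.6, 15.1 and 14.2 (log2 difference 1.86 ± 0.11, adjusted p = 3.71e-06). The constitutive chaperone Hspa8 was at 28.2 and 24.4 CP10K against 43.5, 40.8 and 39.99 (log2 difference 0.65 ± 0.09, adjusted p = 0.0017) and the cochaperone Dnajb1 at 9.52 and 8.57 CP10K against 15.4, 16.9 and 17.6 (log2 difference 0.84 ± 0.11, adjusted p = 0.00131). Hspa1b, a near copy of Hspa1a with which reads can be shared, was at 0.0334 and 0.357 CP10K against 0.909, 0.747 and 0.922 and passed the filter only through the DKO-labelled libraries. Hspd1 differed by 1.02 and Hsph1 by 0.91. Heat shock genes can move with tissue dissociation, which the labels do not record by library, and its part was not tested. Over all aortic cells Hspa1a was at 4.71 and 4.33 against 7.02, 6.75 and 6.68 CP10K, so it was higher there too. Immediate early genes, which can also respond to dissociation, gave 19 tested, of which 3 rose and none fell, with a median of 0.17, beside the same 2.99% of all genes. These were Dusp1 at 0.78, Jund at 0.61 and Ier3, which passed the filter only through the DKO-labelled libraries, while Fos at 3.90 and 2.63 CP10K against 3.02, 7.003 and 4.02 and Junb at 17.7 and 19.8 CP10K against 23.8, 21.6 and 19.05 were not called.

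Without a test, Tnfrsf4, the costimulatory receptor OX40, was at 0.0579 and 0.368 CP10K against 1.35, 1.19 and 1.52, low in both Apoe-/- libraries. Its neighbour Tnfrsf18, or GITR, was at 1.03 and 1.20 CP10K against 2.76, 2.19 and 1.92 (log2 difference 0.78 ± 0.18, adjusted p = 0.038). The call of Tnfrsf18 was lost in 8 of 19 alternatives, among them each fit without a DKO-labelled library. Rgs16, a brake on G protein signals, was at 2.34 and 2.06 CP10K against 5.06, 5.57 and 5.44 (log2 difference 1.12 ± 0.14, adjusted p = 0.00131). Phlda1, given without a test, was at 0.515 and 0.338 CP10K against 3.72, 1.74 and 1.15, and passed the filter through the DKO-labelled libraries. Of 24 glycolysis and effector metabolism genes tested 4 were called higher, with a median of 0.13, where 2.99% of all genes tested were called higher. These were S100a11 at 0.99, the actin binder Pfn1 at 0.67, Lgals1 at 0.57 and the oxygen-sensitive transcription factor Hif1a, which at 0.291 and 0.169 CP10K against 1.11, 1.14 and 1.19 passed the filter only through the DKO-labelled libraries. The glycolytic enzyme genes Ldha at 0.28 and Aldoa at 0.03 were not called. No metallothionein or clock gene of 3 tested was called, with Per1 at -0.68 and Mt1 at 0.82.

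Of the constant genes of the gamma T cell receptor chain 2 were called higher. Tcrg-C2 was at 0.851 and 0.829 CP10K against 3.08, 2.68 and 2.74 (log2 difference 1.31 ± 0.16, adjusted p = 0.00131). Tcrg-C4 was at 0.539 and 0.182 CP10K against 1.52, 1.84 and 1.88. It passed the filter through the DKO-labelled libraries, so its levels are given without a test. Tcrg-C1 had 1 and 3 UMIs against 3, 4 and 1, and Trdc 0 and 0 UMIs against 0, 3 and 0. The gamma constant genes are close copies of each other, so how reads fell among them is uncertain. Among 18 T cell receptor complex genes tested, only Trac, the alpha constant gene, was called, at 7.45 and 7.90 CP10K against 11.1, 9.89 and 11.5 (log2 difference 0.47 ± 0.11, adjusted p = 0.0413). That call was lost in 11 of 20 alternatives, among them each fit without a DKO-labelled library. Over all genes tested 2.99% were called higher. The 17 others, with Trbc2 at 22.4 and 22.8 CP10K against 23.3, 20.8 and 24.1, were not called. Variable genes of the receptor were not analysed here. Spp1, the gene of osteopontin, was at 0.0269 and 0.310 CP10K against 1.56, 1.19 and 1.39 in CD8 T cells, given without a test, and at 11.8 and 10.3 against 25.8, 26.7 and 25.2 CP10K over all aortic cells. The part of free RNA in the differences of Spp1, Cd74, Ccl3 and Ccl4 was not tested. Mgp, a matrix gene of smooth muscle, was called at 1.02 ± 0.26, adjusted p = 0.0484, and was at 79.3 and 80.7 against 73.3, 75.4 and 71.3 CP10K over all aortic cells. Without cells holding 2 or more of 6 smooth muscle, fibroblast and macrophage markers the difference of Mgp was -0.00384. Of 4 macrophage and monocyte markers tested none was called, and their 17-gene sum was 9.09 and 10.6 CP10K against 12.98, 13.7 and 13.7, with Csf1r and Apoe at 0 in every CD8 T cell. None of the 10 endothelial, 9 dendritic cell and 6 neutrophil markers passed the filter, and the 2 B cell markers and 4 red blood cell genes tested were not called.

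Of the 32 genes that fell, 19 were ribosomal protein genes, a group counted after its values were seen. Of 81 of them tested none rose, 62 of the 81 were below 0, and their median was -0.18. Over all 2341 genes tested 1.37% fell. Tpt1, a growth-associated protein, was at 68.7 and 76.3 CP10K against 42.3, 43.03 and 44.02 (log2 difference -0.74 ± 0.07, adjusted p = 0.000249). Rpl12 was at 37.8 and 38.9 CP10K against 21.3, 23.2 and 22.4 (log2 difference -0.77 ± 0.08, adjusted p = 0.000517) and Rpl5 at 20.1 and 20.8 CP10K against 10.4, 11.6 and 11.3 (log2 difference -0.85 ± 0.10, adjusted p = 0.00076), and Rack1, a ribosome-bound scaffold, at 23.1 and 21.1 CP10K against 12.1, 13.6 and 12.1 (log2 difference -0.79 ± 0.10, adjusted p = 0.00136). Over all aortic cells Rpl12 was at 11.6 and 11.96 against 8.56, 8.73 and 8.46 CP10K and Tpt1 at 39.02 and 38.4 against 27.1, 27.1 and 26.5, lower in the DKO-labelled libraries as well. The mitochondrial gene mt-Nd2 differed by -0.73, March7 by -0.93, P2ry10 by -0.82, Gpr183, a receptor for oxysterols, by -0.74 and Nabp1 by -0.72.

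CD8 T cells were next set against the 244 CD8-negative T cells of the same libraries (33 and 36 against 64, 61 and 50), with the library as a block and the gate genes left out. Some CD8-negative T cells can be CD8 T cells whose Cd8a and Cd8b1 RNA was missed, and their median depth was 1581 UMIs against 1888. Of 2485 genes tested, 95 were higher in CD8 T cells, 3.82%, and 174 were lower, 7.0% of those tested. The filter used the mean of both populations, so a gene low in 1 of them could pass through the other alone. Where that is stated below, levels are a description with no test. The count of higher genes was 54 without DKO-labelled library 2 and 52 without DKO-labelled library 3. CD8-negative T cells held more RNA of smooth muscle genes, with the summed markers at 68.9 to 90.4 CP10K. All 9 smooth muscle markers tested were among the lower genes. Without cells holding 2 or more of the 6 markers of other cell types, which were 28 CD8 and 44 CD8-negative T cells, 42 of 2440 genes were higher, 1.72%, and 86 lower, 3.52%. Of these 128 genes, 112 had been called in the same direction with all cells. In that fit Tagln was at 0.11, adjusted p = 0.937 and Acta2 at -0.21, adjusted p = 0.737. The 6 markers were Myh11, Tagln, Dcn, Lum, Lyz2 and C1qb. Tagln was thus used to leave cells out, and its value is no independent check.

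Cytotoxic genes were higher in CD8 than in CD8-negative T cells in 11 of 15 tested and lower in none. Their median log2 difference (CD8 minus CD8-negative) was 0.80, against 0.00 over all genes. In this comparison 95 of all 2485 genes tested were higher in CD8 T cells and 174 lower. Without cells with markers of other types 6 of the 15 cytotoxic genes were higher, and Prf1, Klrc1, Klrk1, Fasl and Eomes no longer passed. The markers Nkg7 and Ccl5 are given here as a description: Nkg7 was at 39.3, 40.6, 56.4, 52.1 and 62.2 CP10K in CD8 T cells and 15.7, 14.8, 13.8, 10.01 and 17.1 in CD8-negative T cells. Gzmk, a granzyme of memory-like CD8 T cells, was at 3.63, 3.55, 5.95, 5.41 and 4.92 CP10K in CD8 T cells and 1.52, 1.02, 1.89, 3.004 and 1.82 in CD8-negative T cells (log2 difference 1.17 ± 0.16, adjusted p = 5.62e-05). It was higher in CD8 T cells in 5 of 5 libraries, and without cells with markers of other types its difference was 1.06, adjusted p = 0.000144. Klrd1, the CD94 receptor chain, was at 2.17, 2.87, 6.08, 3.10 and 3.77 CP10K in CD8 T cells and 1.65, 1.21, 1.16, 0.0319 and 1.18 in CD8-negative T cells (log2 difference 1.48 ± 0.26, adjusted p = 0.000675). Gzmb differed by 1.13 ± 0.27, adjusted p = 0.00913 and was higher in 4 of 5 libraries. Of 9 cytokine and chemokine genes tested, 4 were higher in CD8 T cells and 1, Tnfsf8, was lower. Among them, Ccl4 (log2 difference 1.63 ± 0.20, adjusted p = 2.16e-05), Ccl3 (1.26 ± 0.27, adjusted p = 0.00376) and Xcl1 (1.10 ± 0.22, adjusted p = 0.00251), which attracts cross-presenting dendritic cells, were higher in 5 of 5 libraries. Without cells with markers of other types Tnfsf8 was at -1.92 (limma adjusted p = 6.03e-06).

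Of 9 inhibitory receptor and exhaustion genes tested, 5 were higher in CD8 T cells and 1 was lower. Among all 2485 genes of this comparison, 95 were higher and 174 lower. Lag3 was at 1.11, 0.962, 3.18, 1.76 and 3.10 CP10K in CD8 T cells and 0.327, 0.318, 0.122, 0.443 and 0.407 in CD8-negative T cells (log2 difference 1.52 ± 0.24, adjusted p = 0.000247), and the levels did not overlap. Pdcd1 was at 4.72, 4.12, 7.10, 5.72 and 6.09 CP10K in CD8 T cells and 2.76, 1.92, 2.93, 2.28 and 3.07 in CD8-negative T cells (log2 difference 0.96 ± 0.14, adjusted p = 0.000147). Tox, Cd160 and Nr4a2 were the others, at 0.85, 0.69 and 0.58, while Nr4a1, an early response gene, was lower at -0.86. Tox and Cd160 did not pass without cells with markers of other types, which left 3 of 9 higher. Rgs16 (1.48 ± 0.23, adjusted p = 0.000253) and the T cell adaptor Sh2d2a (1.25 ± 0.19, adjusted p = 0.000209) were among the 10 largest differences on this side.

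**Figure D5:**
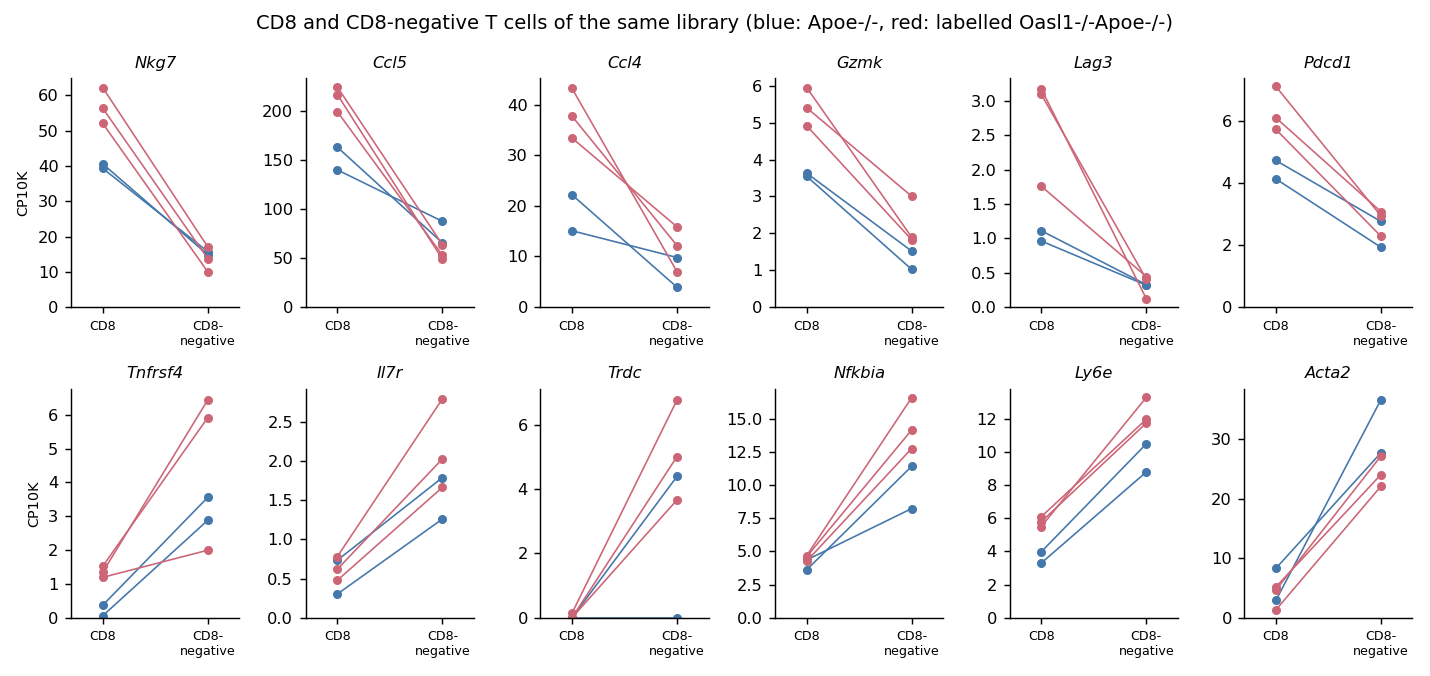
Level (y axis, CP10K, from 0) of 12 genes in CD8 and CD8-negative T cells (x axis), with a line joining both populations of 1 library. All 5 lines fall towards CD8-negative T cells for Nkg7, Ccl5, Ccl4, Gzmk, Lag3 and Pdcd1, and rise for Tnfrsf4, Il7r, Nfkbia, Ly6e and Acta2; for Trdc 1 Apoe-/- library is at 0 in both.

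Most helper and regulatory T cell genes were lower in CD8 T cells. Of 10 helper and regulatory genes tested 7 were lower and none higher, with a median of -0.98. Among all 2485 genes tested, 174 were lower and 95 higher. Tnfrsf4 was at 0.0579, 0.368, 1.35, 1.19 and 1.52 CP10K in CD8 T cells and 2.88, 3.56, 6.44, 1.995 and 5.91 in CD8-negative T cells (log2 difference -1.79 ± 0.23, adjusted p = 3.54e-05). Gata3 (log2 difference -0.99 ± 0.19, adjusted p = 0.00121), Rora (-1.27 ± 0.18, adjusted p = 0.000111) and Icos (-0.90 ± 0.15, adjusted p = 0.000357) were lower in at least 4 of 5 libraries. So were Cd4 and the cytokine gene Il17a, given without a test. Il17a had no UMI in CD8 T cells and Cd4 had one in 2 of them. Both genes passed the filter only through CD8-negative T cells. Without a test, Trdc was at 0, 0, 0, 0.142 and 0 CP10K in CD8 T cells and 0, 4.39, 5.01, 6.76 and 3.66 in CD8-negative T cells. It passed the filter only through CD8-negative T cells, and both populations were at 0 in Apoe-/- library 1. Ramp3, a partner of the calcitonin-like receptor, had the largest difference below 0, -2.79 ± 0.17, adjusted p = 2.49e-08, and Ramp1 (-2.42 ± 0.19, adjusted p = 2.14e-07) and Tmem176b (-2.36 ± 0.19, adjusted p = 2.14e-07) followed beside smooth muscle genes.

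Il7r, the receptor of interleukin-7, was at 0.735, 0.303, 0.781, 0.620 and 0.478 CP10K in CD8 T cells and 1.79, 1.26, 2.79, 2.03 and 1.66 in CD8-negative T cells (log2 difference -1.14 ± 0.18, adjusted p = 0.000212), the egress receptor S1pr1 at -0.83 and Id3 at -1.27. Id3 did not pass without cells with markers of other types (-0.27, adjusted p = 0.616). Beside the lists that follow, 95 of all 2485 genes tested were higher in CD8 T cells and 174 lower. Immediate early genes were lower in 9 of 21 tested and higher in 1. Without cells with markers of other types 5 of 20 were lower, and Atf3, Fosb, Egr1 and Dusp1 no longer passed. Among those that passed in both were Nfkbia (log2 difference -1.42 ± 0.13, adjusted p = 1.4e-06) and Junb, at 17.7, 19.8, 23.8, 21.6 and 19.05 CP10K in CD8 T cells and 33.99, 33.8, 35.2, 36.8 and 34.3 in CD8-negative T cells (log2 difference -0.77 ± 0.08, adjusted p = 2.11e-06). Of 24 interferon response genes tested, Ly6c2 was higher (log2 difference 0.96 ± 0.19, adjusted p = 0.00204) and Ifitm2, Ifitm3, Ly6e and Ly6a were lower, with Ly6e at 3.98, 3.30, 5.51, 6.10 and 5.80 CP10K in CD8 T cells and 10.5, 8.80, 13.3, 11.99 and 11.8 in CD8-negative T cells (log2 difference -1.13 ± 0.12, adjusted p = 3.57e-06). Ifi27l2a was not called between the populations (-0.31 ± 0.23, adjusted p = 0.491).

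The genotype difference of CD8 T cells was compared with that of CD8-negative T cells by a test of the difference of the differences. Past the threshold were 2 of 2485 genes, 0.0805%, and 212 genes had an unadjusted p under 0.05. Ccl5 in CD8-negative T cells was at 87.6 and 65.6 against 52.99, 48.9 and 63.8 CP10K, lower in every DKO-labelled library than in both Apoe-/- libraries, whereas it was higher in each of them in CD8 T cells (difference of log2 differences 0.96 ± 0.15, adjusted p = 0.0219). Ifi27l2a in CD8-negative T cells was at 5.02 and 3.61 against 12.2, 9.86 and 12.5, higher in the DKO-labelled libraries as in CD8 T cells but from a higher start (difference of log2 differences 1.64 ± 0.22, adjusted p = 0.0147). Leaving out any 1 of the 3 DKO-labelled libraries left 0 genes past the threshold, and leaving out Apoe-/- library 1 or 2 gave 4 or 9. Ccl5 also did not pass at a pseudocount of 0.05 or a filter of 2 CP10K, nor Ifi27l2a in cells thinned to 1000 UMIs. The part in these values of CD8 T cells whose Cd8a and Cd8b1 RNA was missed was not tested. CD8-negative T cells had Zbp1 at 0.580 and 0.428 against 1.41, 1.22 and 1.45 and Isg15 at 0.754 and 0.133 against 5.19, 2.30 and 2.96 CP10K, and for these the difference of differences was not called. In simulated data that test recovered 18.5% of 2-fold changes, so a gene not called may still differ.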

How the data were processed

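Live cells of the aortic arch were profiled with 10x 3′ v2 chemistry in 5 libraries. Per the labels and methods, reads were counted with Cell Ranger 3.1.0 on mm10, cells with more than 10% mitochondrial reads or at most 200 genes were dropped, DoubletFinder removed doublets before deposit, and Seurat 4.0.3 was used. The authors deposited the natural log of 1 plus UMIs per 10000 for 16498 genes in 18260 cells. Whole UMIs were recovered from these values within a tolerance of 0.01 for 100% of them. No cell type annotation was used, and the gate replaced it.

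The deposited values were returned to CP10K and averaged over the CD8 T cells of each library. Genes with a mean of at least 0.5 CP10K were tested as log2(CP10K + 0.5) with limma 3.58.1 (R 4.3.3, trend, Benjamini-Hochberg threshold 0.05). Shares were compared with exact two-sided permutation tests over 10 assignments (scipy 1.17.1). CD8 and CD8-negative T cells were compared within libraries, with the library as a block. The fits were tested on simulated data. Of 2-fold changes 49.4% were recovered between the groups, 69.2% between CD8 and CD8-negative T cells and 18.5% in the difference of differences. For 4-fold changes these values were 98.7%, 100% and 63.3%. Unchanged genes called were 9 of 2154, 9 of 2322 and 5 of 2311. Intervals, and limits set by a count of 0, cover only counting error. The members, gene lists and tests were chosen with earlier results of these data known. Genes were named by rule: the 10 largest called changes each way, called members of each list, and 3 abundant members of a list with none. Alternatives changed the pseudocount, filter, scaling, test, gate, thinning and block, and left out each library. Some genes, and 1 of 7 gene groups thinned and compared, are not reported here.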

Additional observations from a re-analysis of the deposited data

Results flagged for a closer look

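The genotype difference was not the same in CD8 and CD8-negative T cells for 2 genes. For Ccl5 the log2 difference between DKO-labelled and Apoe-/- libraries was larger in CD8 T cells by 0.96 ± 0.15 (limma adjusted p = 0.0219 over 2485 genes). It was 0.50 in CD8 T cells, where every DKO-labelled library was above both Apoe-/- libraries, and in CD8-negative T cells every DKO-labelled library was below both. For Ifi27l2a the difference was larger in CD8 T cells by 1.64 ± 0.22 (limma adjusted p = 0.0147), with every DKO-labelled library above both Apoe-/- libraries in each population. Neither gene passed when any 1 of the 3 DKO-labelled libraries was left out. Ccl5 also did not pass at a pseudocount of 0.05 or at a filter of 2 CP10K, and Ifi27l2a did not pass in cells thinned to 1000 UMIs. CD8-negative T cells were fewer, 33 to 64 per library, and held more smooth muscle RNA, and the part of either in these values was not tested. Both Cd8a and Cd8b1 were seen in 58.5% and 54.5% of CD8 T cells against 73.8%, 69.2% and 71.0%. The part of CD8 T cells whose Cd8a and Cd8b1 RNA was missed was not tested either.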

How the results depend on the processing

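The larger share of CD8 T cells among all cells kept its direction under every alternative run, from 1.73 to 2.06 percentage points with 1 library left out. The effector, Nkg7, inhibitory and interferon shares kept theirs too. The Ccl5 share difference turned to 2.92 percentage points in cells as deposited and 0.160 at 500 UMIs, and that of residence genes to 2.76 and 9.32, and it ranged from -5.96 to 5.68 with 1 library left out, with 1.64 without DKO-labelled library 2. Between the groups, 102 genes passed (70 higher, 32 lower). The count was 53 (35 and 18) with limma-voom, 66 (43 higher) in thinned cells, and 40 to 139 (27 to 94 and 13 to 45) with 1 library left out. The lower genes were 51 with a Cd8b1 UMI required and 49 without cells with haemoglobin genes, an alternative chosen after seeing the data. Mgp turned to -0.00384 without cells with other markers and to -0.0958 without cells over 5000 UMIs, the latter also chosen after seeing the data.

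With the replicate number as a block (replicate block), 46 genes passed, 30 higher and 16 lower, and 13 in the difference of differences. The labels tie the numbers to no batch or animal, and only numbers 1 and 2 occur in both groups (r of deviations 0.138 and 0.0687), so the pairing was not used. The block uses 4 of the 5 libraries.

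CD8 against CD8-negative T cells gave 269 genes (95 higher, 174 lower). There were 139 (59 lower) at a filter of 2 CP10K, 518 (195 and 323) with limma-voom, 50 higher with no library block, and 128 (42 and 86) without cells with markers of other types. With 1 library left out the counts ran from 180 to 278, 52 to 98 and 128 to 180. The median of naive genes turned to 0.13 at a filter of 2 CP10K, and Egr1 (0.19) and Tagln (0.11) turned without cells with markers of other types, an alternative chosen after seeing the data. Tagln is 1 of those markers. The difference of differences gave 2 genes, 1 at a pseudocount of 0.05, 1 at a filter of 2 CP10K, and 0 to 9 with 1 library left out. Apart from fits with fewer libraries or genes, the cause of these changes was not tested. With 55 to 117 cells per library, genes with a mean under 0.5 CP10K were left out of the main fits by choice. An alternative fit between the groups used a filter of 0.05 CP10K.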
